A study of Homo sapiens with 24 samples.

Results

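The genes described here are the carriers that move amino acids and related small molecules across membranes, in the families SLC1, SLC3, SLC6, SLC7, SLC36, SLC38 and SLC43. They were taken from the count tables by symbol (SLC, one of these family numbers, then A and a number), with 1 SLC7 gene left out. The rule found 62 of the 23106 genes in the tables. Of these, 58 are carriers or parts of carriers, 3 are pseudogenes (SLC6A10P, SLC7A5P1 and SLC7A5P2), and SLC7A6OS is a gene on the opposite strand to SLC7A6 that is no carrier. At least 1 line had enough counts to test 41 of the 62 genes. The other 21 were tested in no line.

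Amino acids carry charges and cross the plasma membrane almost only through carriers. Some carriers take them up against their gradient by coupling to sodium or protons (SLC1, SLC6, SLC36 and SLC38), and others exchange an internal amino acid for an external one (most of SLC7). The exchangers of SLC7 that are called light chains reach the cell surface only when bound to a heavy chain of SLC3. Several SLC6 members carry other solutes, such as creatine, taurine, betaine, GABA or serotonin. In tumor cells these carriers supply glutamine and leucine for protein synthesis and for mTORC1 signaling, and glutamate and cystine for redox control.

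RNA was sequenced from A549 (lung), HCT-116 (colorectal), PC3 (prostate) and T47D (breast) cancer cell lines, kept in 21% oxygen (normoxia) or in 0.5% oxygen for 16 h (hypoxia), with 3 libraries in each of the 8 groups. The labels name no engineered allele and no other treatment. A549 and PC3 cells were grown in F12K medium, HCT-116 cells in McCoy's 5a and T47D cells in DMEM, each with fetal bovine serum and L-glutamine, so differences between lines cannot be told apart from differences in medium, except between A549 and PC3 cells. The labels do not say whether replicates were separate cultures, and p values measure the spread between these libraries, which may be technical.

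Totals ranged from 22698584 to 62850747 counts, and 3 counts, the smallest level taken as detected, correspond to 0.0436 to 0.132 CPM, the count scaled to the effective size of the library. This floor covers counting error only. Of 9 genes chosen as a check of the hypoxia labels, all 9 were upregulated in A549, HCT-116 and T47D cells and 8 in PC3 cells. The defining lung markers were nearly absent from A549 cells (all 5 under 1 CPM), and over a mean of 1 CPM in the line were 1 of 5 colorectal markers in HCT-116 cells (CDX2, with CDX1 at 0), 2 of 5 prostate markers in PC3 cells (HOXB13 among them, with KLK3 at 0) and 4 of 5 breast markers in T47D cells (not SCGB2A2). Summed markers of immune cells stayed at or below 1.23 CPM in every library, and all 4 epithelial markers were over 1 CPM in every line. Of 4 fibroblast markers 1 (COL1A1) was over 1 CPM in each line, and of 3 endothelial markers 1 in PC3 cells.

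In normoxia the 2 subunits of a single exchanger had the highest mean levels of the families over the 12 libraries, and were the highest 2 in A549 and T47D cells. In HCT-116 cells SLC38A2 was above both of them, and in PC3 cells it lay between them. Levels between genes are compared as RPKM, the CPM divided by the length of the transcript in kilobases. SLC3A2, the heavy chain also known as 4F2hc or CD98, had a mean of 254 RPKM over the 12 normoxia libraries, and SLC7A5, the light chain that carries leucine and other large neutral amino acids, had 222 RPKM. Next came SLC38A2, a sodium-coupled carrier of alanine, glutamine and other small neutral amino acids (126 RPKM), and SLC1A5, the glutamine exchanger ASCT2 (104 RPKM). SLC38A1, another glutamine carrier, followed with 45.0 RPKM. SLC38A10 (21.1 RPKM), the creatine carrier SLC6A8 (16.3 RPKM) and the taurine carrier SLC6A6 (14.7 RPKM) completed the 8 highest.

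The A549 libraries stood apart for the transcripts of SLC7A5 and SLC3A2. SLC7A5 was at 558, 519 and 728 RPKM in the 3 normoxic A549 libraries, against 113 ± 35.7 (SD, n = 3) in HCT-116, 80.0 ± 15.2 in PC3 and 94.9 ± 31.7 in T47D cells. SLC3A2 was at 631, 554 and 707 RPKM in the A549 libraries, against 129.9 ± 21.9, 116 ± 11.6 and 139.7 ± 51.6. Levels of 2 lines are said to differ where the pairwise contrast had an adjusted p under 0.05 and a fold over 1.2, which 64.9% of all genes did between A549 and HCT-116, 60.0% between A549 and PC3, 66.6% between A549 and T47D, 65.6% between HCT-116 and PC3, 68.5% between HCT-116 and T47D and 67.8% between PC3 and T47D cells. For both genes every A549 library was above every library of the other lines, and HCT-116, PC3 and T47D cells did not pass the test against each other. SLC1A5 had the same order at the top, with 188 ± 25.9 RPKM in A549 cells and 63.9 ± 8.59 to 88.5 ± 33.8 in the rest. SLC38A2 was instead highest in HCT-116 cells (210.4 ± 5.64 RPKM), with A549 (109.9 ± 13.5) and PC3 cells (102 ± 1.99) not passing the test against each other, nor PC3 against T47D cells (81.3 ± 8.15).

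A549 cells were at opposite ends for the creatine and taurine carriers. SLC6A8 was highest in PC3 cells at 38.3, 42.7 and 32.4 RPKM, then HCT-116 (20.5 ± 6.14) and T47D cells (4.93 ± 0.928), and lowest in A549 cells at 1.92, 1.81 and 1.79 RPKM. All 6 pairs of lines passed the test for SLC6A8. SLC6A6 was highest in A549 cells (33.3 ± 6.98 RPKM) and lowest in HCT-116 cells (6.39 ± 1.21). PC3 cells (8.23 ± 1.15) did not pass the test against HCT-116 cells or against T47D cells (10.9 ± 0.944).

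Other carriers were nearly confined to 1 or 2 lines in normoxia. SLC7A8, the second light chain for large neutral amino acids, was at 26.4 ± 12.8 RPKM in T47D cells and at most 0.644 ± 0.152 RPKM in the other 3 lines. SLC7A7, the light chain that exchanges cationic for neutral amino acids, was at 11.7 ± 2.64 RPKM in A549 cells and at most 0.194 ± 0.103 elsewhere. SLC38A5, a carrier of glutamine, histidine and serine, was at 26.7 ± 3.36 RPKM in HCT-116 cells and at most 0.510 ± 0.119 in the other lines. The GABA carrier SLC6A11 was at 7.48 ± 0.763 RPKM in PC3 cells. T47D cells had 1.11 ± 0.142 RPKM of SLC6A11, and no library of the other lines held more than 4 counts. The glutamate carrier SLC1A3 was at 8.07 ± 0.377 RPKM in PC3 cells and 3.38 ± 0.673 in HCT-116 cells, and had no count in the 6 A549 libraries. Over the 4 lines, 39 of the 41 members tested in normoxia differed (edgeR's quasi-likelihood test over lines, adjusted p under 0.05), beside 93.5% of all genes tested. SLC7A6 (10.9 ± 3.13 RPKM in HCT-116 cells to 13.2 ± 0.893 in PC3 cells) and SLC7A6OS were the 2 that did not.

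**Figure D1:**
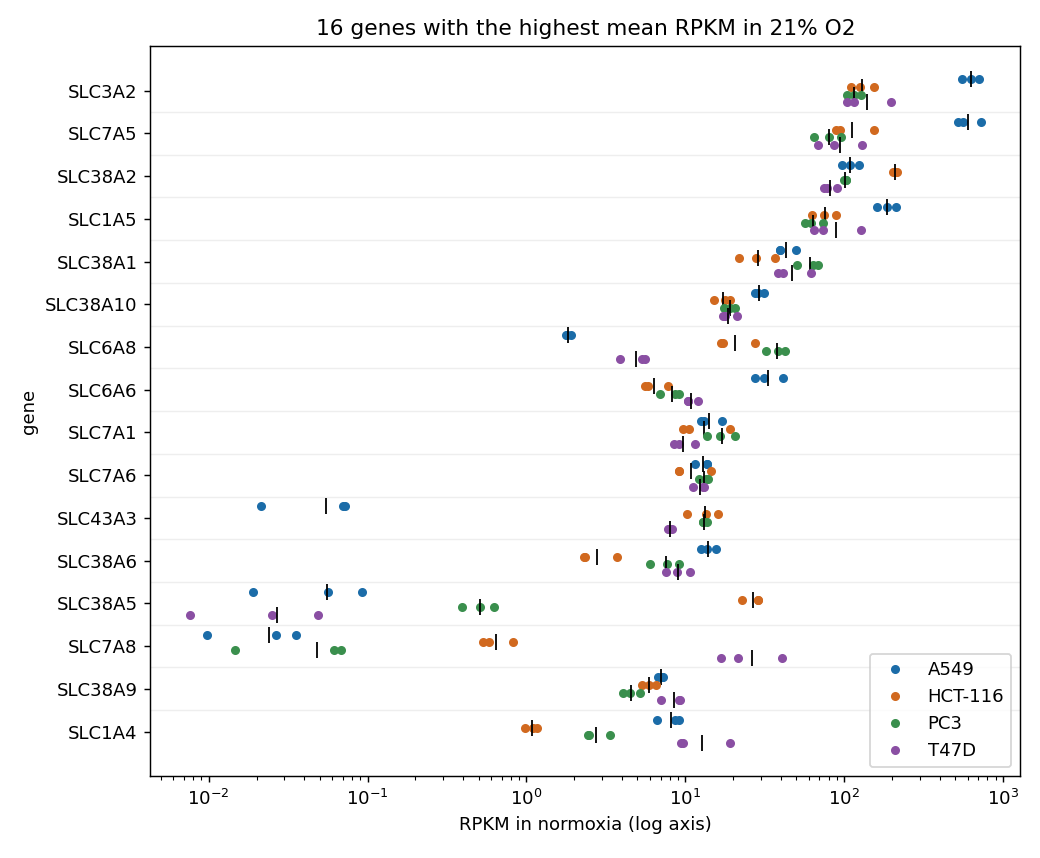
RPKM (log axis) of the 16 genes with the highest mean level in normoxia, with 1 point per library in the color of its cell line and a tick at the mean of 3 libraries. SLC3A2 and SLC7A5 lie at the top with the A549 points to the right of all others, and SLC43A3, SLC38A5 and SLC7A8 are spread most widely between lines.

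Hypoxia was then compared with normoxia in each line with edgeR's quasi-likelihood test. The Benjamini-Hochberg adjustment ran over all genes tested in that line, and a gene was called upregulated or downregulated when its adjusted p was under 0.05 and its fold change over 1.2. Fold changes are given as log2 of hypoxia over normoxia, so that 1 is a doubling, with their standard errors.

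In A549 cells, 9 of the 30 members tested were upregulated and 2 were downregulated, beside 17.6% and 17.8% of all genes tested. In HCT-116 cells, 10 of 33 were upregulated and 7 downregulated, beside 23.3% and 27.0%. PC3 cells had 9 upregulated and 1 downregulated of 32, beside 16.6% and 15.7%. T47D cells had 2 of 36 in each direction, beside 6.55% and 6.69%. A fit of T47D cells with the replicate block gave 4 upregulated members (SLC6A6, SLC6A8, SLC6A12 and SLC38A5) and 2 downregulated of 36. In that fit 1281 of all 14085 genes tested were upregulated and 1485 downregulated. The median log2 fold change of the members tested was 0.19 in A549, 0.27 in HCT-116, 0.22 in PC3 and 0.28 in T47D cells, against medians of all genes between -0.03 and -0.01. Libraries of the 2 oxygen states did not overlap for 15, 20, 15 and 12 members in these lines, beside 48.1%, 60.3%, 51.4% and 32.5% of all genes. In bulk RNA, fewer cells with a transcript and less of it per cell cannot be told apart. With no filter on low counts the HCT-116 median was -0.15. The counts depended on single libraries. In T47D cells the upregulated members numbered 1 without hypoxia replicate 1, normoxia replicate 1 or normoxia replicate 2. Of all genes, 515 of 14316, 180 of 14264 and 322 of 14232 were upregulated in these fits. Upregulated members numbered 5 without hypoxia replicate 3 and 4 without normoxia replicate 3, beside 1549 of 14342 and 1173 of 14373 of all genes. In A549 cells the upregulated members fell to 6 without normoxia replicate 2, beside 1642 of all 14051 genes. Scaling to total counts gave 7 upregulated and 3 downregulated members, beside 1778 and 3461 of all 13897 genes. Downregulated members numbered 1 in A549 cells without replicate 1 or 2 of either state, beside 1467 to 1946 of all genes (14051 to 14121 tested). In HCT-116 cells they numbered 4 without hypoxia replicate 3 or normoxia replicate 1, beside 2748 of 13922 and 3357 of 13874. In T47D cells the downregulated members numbered 1 without hypoxia replicate 1 or 3, beside 363 of 14316 and 1756 of 14342 of all genes. They numbered 0 by edgeR without hypoxia replicate 2 or normoxia replicate 1 or 2 (1 or 2 at an unadjusted p under 0.05). Of all genes, 492 of 14307, 19 of 14264 and 85 of 14232 were downregulated in these fits. Downregulated members of PC3 cells numbered 1 without normoxia replicate 2 and 2 without normoxia replicate 3, beside 2732 of 13576 and 1735 of 13641 of all genes. The 1 called without normoxia replicate 2 was not SLC43A2, the member downregulated in the main fit. Without any other library edgeR called 0 (1 or 2 at an unadjusted p under 0.05), beside 875 to 1309 of all genes (13539 to 13664 tested).

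The direction was shared for part of the families. Of the 24 members tested in all 4 lines, 11 had a positive log2 fold change in each line, namely SLC1A1, SLC1A4, SLC1A5, SLC6A6, SLC6A8, SLC7A1, SLC7A5, SLC36A4, SLC38A1, SLC38A2 and SLC38A10. Under scaling to total counts the sign turned for SLC1A4 in A549 cells (-0.11) and for SLC1A5 in A549 (-0.09) and T47D cells (-0.02). Another 5 were negative in each line, namely SLC38A6, SLC38A9, SLC7A6OS and the pseudogenes SLC7A5P1 and SLC7A5P2, and for SLC38A9 the sign in A549 and PC3 cells, where the values were near 0, turned under several settings, the size factors of DESeq2 among them. Over all 11734 genes tested in the 4 lines, 27.2% were positive and 31.1% negative in each. Without the replicate block, SLC6A8 was upregulated in all 4 lines, SLC6A6, SLC1A1 and SLC38A2 in 3, and SLC38A6 was downregulated in 3. Another 13 members were upregulated in 1 or 2 lines, 7 were downregulated in 1 or 2, and SLC1A3 is among both.

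**Figure D2:**
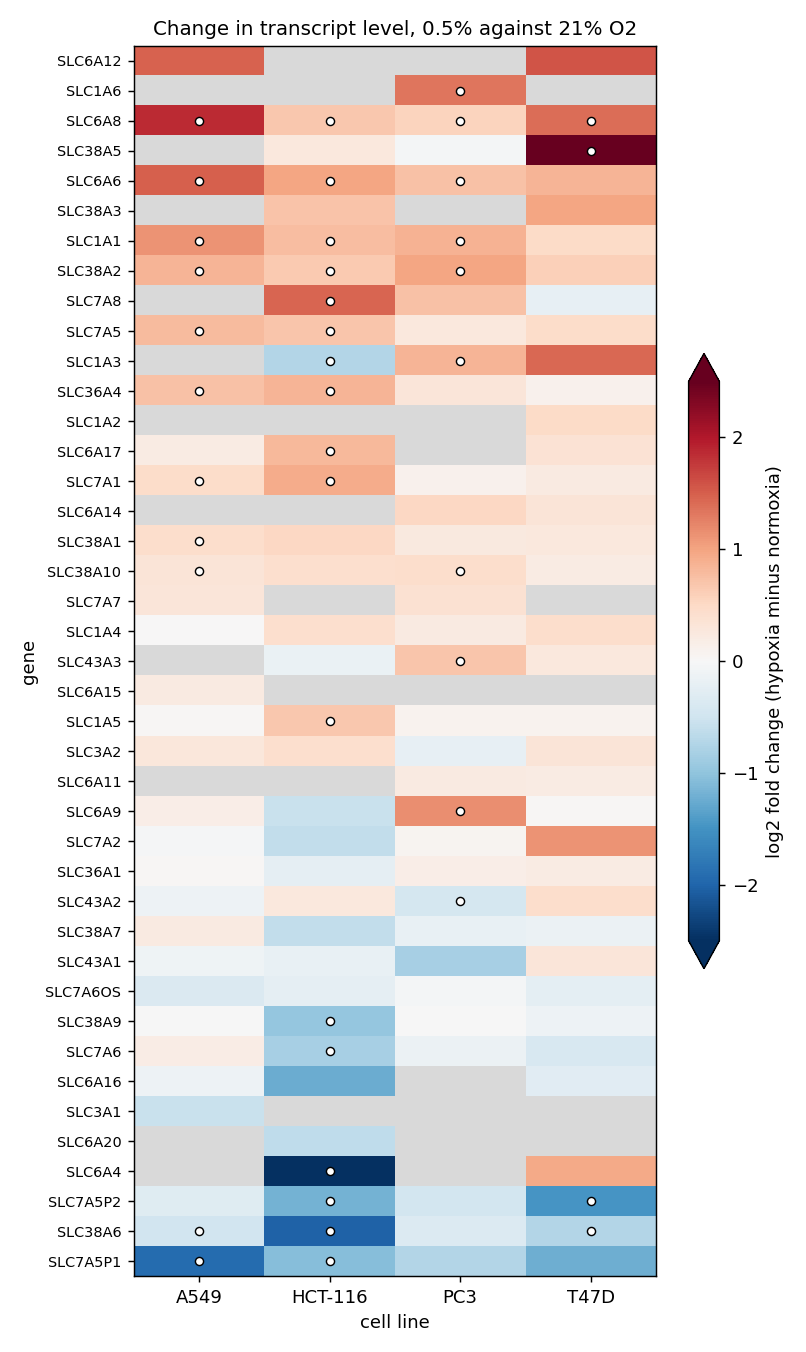
Log2 fold change of hypoxia over normoxia (color, from -2.5 in blue to 2.5 in red, with values beyond in the end color) for the 41 genes tested in at least 1 cell line, ordered by their mean. White dots mark calls (adjusted p under 0.05 and fold over 1.2) and gray marks a line in which the gene was not tested; SLC6A8 is the 1 row with a dot in all 4 columns.

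The summed level of all members went from 5535 ± 806 (SD, n = 3) in normoxia to 8550.1 ± 445 in hypoxia in A549 cells, in CPM. In normoxia and hypoxia it was 2745 ± 465 and 4088 ± 202 CPM in HCT-116, 2516 ± 192 and 3364 ± 470.1 CPM in PC3 and 2566 ± 525 and 3244 ± 122 CPM in T47D cells. SLC7A5 alone made up 43.6% to 53.2% of this sum in A549 libraries and 11.04% to 22.6% in the other lines. These sums are a description, and their lowest hypoxic library was above the highest normoxic one in A549, HCT-116 and PC3 cells but not in T47D cells.

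The windows before the transcription start of the genes called in the same direction in 3 or 4 lines are shown because these are the members that moved together across lines. SLC6A8 lies at chrX:152953381-152962043, plus strand, 13 exons in GRCh37, SLC1A1 at chr9:4490468-4587469, plus strand, 12 exons, SLC38A2 at chr12:46751971-46766556, minus strand, 16 exons, SLC38A6 at chr14:61447832-61581034, plus strand, 16 exons and SLC6A6 at chr3:14444076-14530857, plus strand, 19 exons. The sequences are the 250 bases before the RefSeq start, from the RefSeq table on GRCh38.p14, which is another build than that of the counts. Capitals mark the core of the hypoxia response element, ACGTG or GCGTG, searched on both strands, so that the reverse complement (such as CACGC) is also in capitals.
SLC6A8 (chrX:153687676-153687925, plus strand): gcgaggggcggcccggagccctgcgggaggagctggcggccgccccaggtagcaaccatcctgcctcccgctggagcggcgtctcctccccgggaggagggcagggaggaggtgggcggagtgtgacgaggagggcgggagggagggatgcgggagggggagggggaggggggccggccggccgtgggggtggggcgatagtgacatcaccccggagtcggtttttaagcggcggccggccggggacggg
SLC1A1 (chr9:4490218-4490467, plus strand): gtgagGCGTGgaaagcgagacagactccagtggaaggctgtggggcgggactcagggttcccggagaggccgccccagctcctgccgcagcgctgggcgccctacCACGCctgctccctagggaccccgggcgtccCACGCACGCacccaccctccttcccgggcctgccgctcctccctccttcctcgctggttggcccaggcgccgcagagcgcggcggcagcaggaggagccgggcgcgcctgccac
SLC38A2 (chr12:46372774-46373023, minus strand): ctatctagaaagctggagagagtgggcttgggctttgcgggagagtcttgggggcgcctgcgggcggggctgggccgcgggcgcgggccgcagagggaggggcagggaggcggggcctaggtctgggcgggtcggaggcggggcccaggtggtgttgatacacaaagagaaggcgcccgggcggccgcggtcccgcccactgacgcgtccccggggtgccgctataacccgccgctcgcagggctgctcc
SLC38A6 (chr14:60980995-60981244, plus strand): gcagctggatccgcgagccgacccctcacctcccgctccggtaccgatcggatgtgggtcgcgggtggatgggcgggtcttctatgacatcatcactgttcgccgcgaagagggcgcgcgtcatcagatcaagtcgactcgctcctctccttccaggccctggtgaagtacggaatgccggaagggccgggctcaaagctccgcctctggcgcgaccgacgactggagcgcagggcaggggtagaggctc

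The SLC1A1 window held the core 4 times, the last 2 of the matches sharing a base, and those of SLC6A8, SLC38A2 and SLC38A6 held none. No window of SLC6A6 was in the table. Over the 44 members with a window in the search, 36 of 66 windows (54.5%) held the core, against 43.2% of the 35116 windows of all genes. The element TGATGNAA, to which ATF4 binds, was in 2 of the 66 (3.03%) and in 3.14% of all. A match of these letters is not a binding site, and their absence from this window says nothing about sites elsewhere.

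SLC6A8, which carries creatine into cells, was the member upregulated in every line in the fits without the replicate block. In A549 cells the 3 normoxia libraries (replicates 1 to 3 in this order throughout) had 6.81, 6.46 and 6.36 CPM and the hypoxia libraries 29.4, 23.4 and 18.3 CPM (log2 fold change, 1.86 ± 0.168 (SE), adjusted p = 1.6e-05). T47D cells went from 16.7, 23.7 and 21.8 to 51.5, 57.9 and 55.2 CPM (log2 fold change, 1.40 ± 0.200 (SE), adjusted p = 0.00112). PC3 cells, which had the highest normoxic level, went from 149, 162 and 129.97 to 221, 224 and 204 CPM (log2 fold change, 0.56 ± 0.103 (SE), adjusted p = 0.00503). In these 3 lines the oxygen states did not overlap, and the PC3 call was lost only in the fit of all 24 libraries (adjusted p = 0.0632). HCT-116 libraries had 107, 64.7 and 61.7 CPM in normoxia and 162, 93.5 and 116 CPM in hypoxia (log2 fold change, 0.67 ± 0.259 (SE), adjusted p = 0.0459). There normoxia replicate 1 was above hypoxia replicate 2, and the call was lost when hypoxia replicate 1 or 3 or normoxia replicate 2 or 3 was left out (adjusted p up to 0.146). The aligned part of the pseudogene SLC6A10P is 96.4% identical to SLC6A8, so reads may be split between them, but SLC6A10P had at most 5 counts in any library.

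SLC6A6, which carries taurine, was upregulated in 3 lines. In A549 cells it rose from 163, 184 and 242 to 592, 569 and 497 CPM (log2 fold change, 1.49 ± 0.148 (SE), adjusted p = 3.22e-05). It rose in HCT-116 cells from 49.9, 35.8 and 34.3 to 65.8, 95.8 and 77.2 CPM (log2 fold change, 0.99 ± 0.216 (SE), adjusted p = 0.00216) and in PC3 cells from 59.1, 53.7 and 46.1 to 106, 79.8 and 77.5 CPM (log2 fold change, 0.73 ± 0.139 (SE), adjusted p = 0.0056). T47D libraries had 74.2, 84.8 and 69.9 CPM in normoxia and 162, 173 and 77.7 CPM in hypoxia (log2 fold change, 0.85 ± 0.272 (SE), adjusted p = 0.055), and with the replicate block the adjusted p was 0.0341. Hypoxia replicate 3 of T47D cells was the library that stayed within the normoxic range. Without it SLC6A6 was called in T47D cells.

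The remaining SLC6 members were called in at most 1 line. SLC6A9, the glycine carrier GlyT1, was at 22.8, 18.1 and 18.6 CPM in normoxic and 58.1, 40.3 and 34.4 CPM in hypoxic PC3 cells (log2 fold change, 1.16 ± 0.183 (SE), adjusted p = 0.00308), with no overlap. Its log2 fold change was 0.17 in A549 (adjusted p = 0.32), -0.55 in HCT-116 (adjusted p = 0.125) and 0.02 in T47D (adjusted p = 0.959). SLC6A4, the serotonin carrier, had few counts: 18, 18 and 23 counts in normoxic and 2, 4 and 2 in hypoxic HCT-116 libraries (log2 fold change, -2.63 ± 0.701 (SE), adjusted p = 0.00735). In T47D cells it had 20, 35 and 35 counts in normoxia and 87, 53 and 48 in hypoxia (log2 fold change, 0.94 ± 0.449; adjusted p = 0.175). SLC6A17, a vesicular carrier of neutral amino acids, was the other SLC6 call, upregulated in HCT-116 cells (log2 fold change, 0.81 ± 0.213; adjusted p = 0.00659). The betaine and GABA carrier SLC6A12 was called in T47D cells by DESeq2 and with the replicate block, and not in the edgeR fit without it (log2 fold change, 1.57 ± 0.558 (SE), adjusted p = 0.0779, or 0.0458 with the block).

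**Figure D3:**
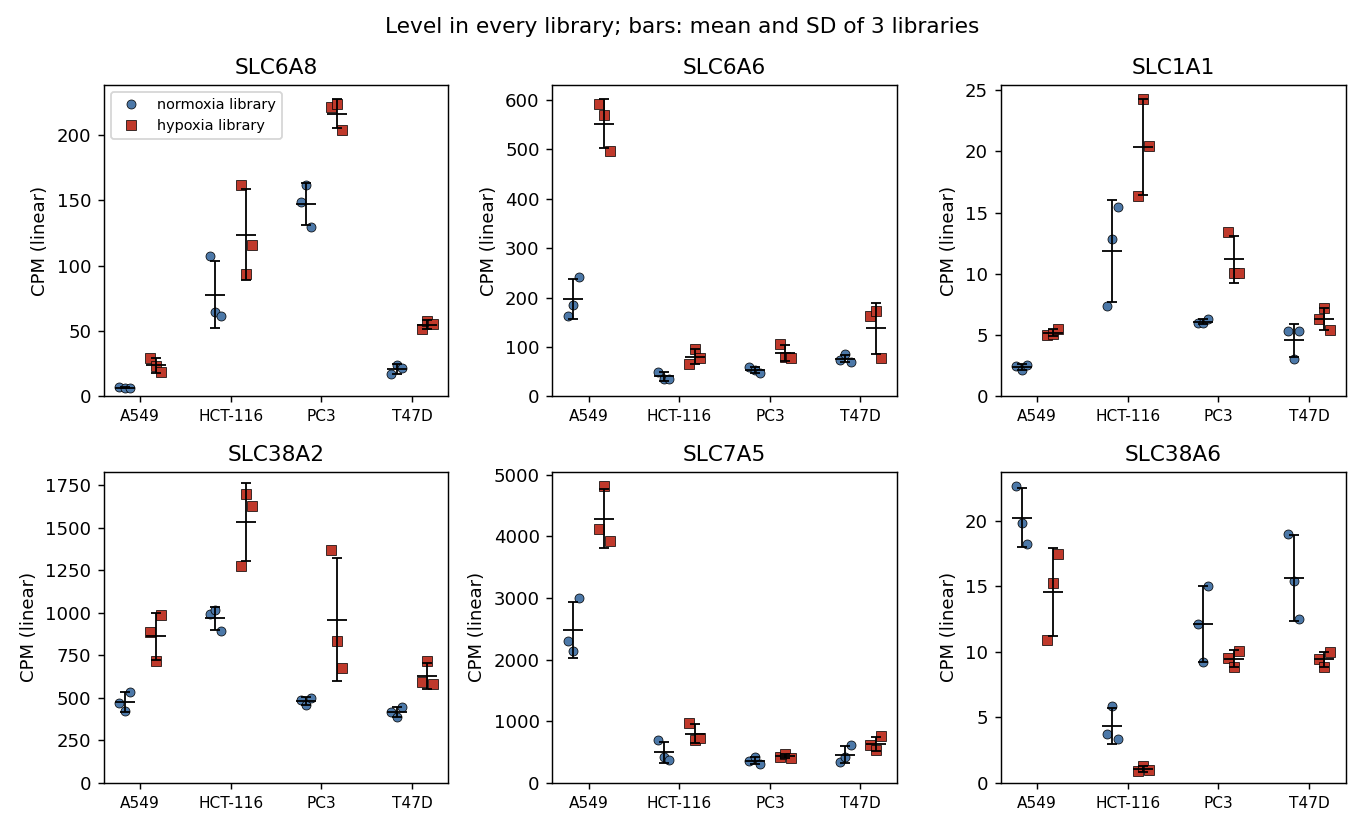
CPM (linear axes from 0) of 6 genes in each of the 24 libraries, normoxia as blue circles and hypoxia as red squares, with the mean and SD of 3 libraries in black. The mean of SLC6A8 rises in every line and that of SLC38A6 lies lower in hypoxia. Points of the oxygen states overlap in HCT-116 cells for SLC6A8, in T47D cells for SLC6A6 and in PC3 cells for SLC38A6. For SLC7A5 they overlap in HCT-116, PC3 and T47D cells.

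Among the glutamate carriers of SLC1, SLC1A1 was upregulated in 3 lines. SLC1A1, also called EAAT3, takes up glutamate, aspartate and cysteine. In A549 cells it went from 2.51, 2.12 and 2.52 to 4.99, 5.09 and 5.53 CPM (log2 fold change, 1.13 ± 0.191 (SE), adjusted p = 0.00115), and in PC3 cells from 5.95, 6.01 and 6.32 to 13.4, 10.1 and 10.1 CPM (log2 fold change, 0.88 ± 0.153 (SE), adjusted p = 0.00423). HCT-116 libraries went from 7.33, 12.8 and 15.4 to 16.4, 24.3 and 20.5 CPM (log2 fold change, 0.78 ± 0.267 (SE), adjusted p = 0.0264). That call was lost without hypoxia replicate 2 or normoxia replicate 1 (adjusted p up to 0.0736). T47D libraries had 5.32, 3.01 and 5.35 CPM and 6.31, 7.19 and 5.41 CPM (log2 fold change, 0.47 ± 0.290 (SE), adjusted p = 0.291), which did not overlap but did not pass the test.

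SLC1A3, the glutamate carrier EAAT1, was the only member called in both directions. It fell in HCT-116 cells from 13.0, 10.46 and 14.5 to 8.83, 7.28 and 6.62 CPM (log2 fold change, -0.74 ± 0.223 (SE), adjusted p = 0.0146) and rose in PC3 cells from 30.6, 32.1 and 31.3 to 70.6, 53.2 and 45.1 CPM (log2 fold change, 0.85 ± 0.148 (SE), adjusted p = 0.00424). The states did not overlap in either line, and the fall in HCT-116 cells was not called without hypoxia replicate 3 or normoxia replicate 3. In the fit of all 24 libraries neither call of SLC1A3 passed (adjusted p = 0.0794 in PC3 and 0.11 in HCT-116 cells). T47D libraries had between 3 and 44 counts. SLC1A6, another glutamate carrier, was called in PC3 cells only (7, 41 and 21 counts in normoxia, 78, 80 and 65 in hypoxia; log2 fold change, 1.34 ± 0.373; adjusted p = 0.0225). All 3 glutamate carriers tested in PC3 cells were upregulated, beside 16.6% of all genes tested there. In HCT-116 cells 1 of 2 tested was upregulated and 1 downregulated, and in T47D cells 0 of 3 were called.

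The 2 neutral exchangers of SLC1 gave a single call. SLC1A5 rose in HCT-116 cells from 254, 178 and 196 to 401, 275 and 321 CPM (log2 fold change, 0.67 ± 0.223 (SE), adjusted p = 0.0233), and without hypoxia replicate 1 this call was lost (adjusted p = 0.0758). In A549 cells it was at 488, 423 and 557 CPM in normoxia and 477, 504 and 508 CPM in hypoxia (log2 fold change, 0.02 ± 0.119 (SE), adjusted p = 0.911), and the states overlapped. Its log2 fold change was 0.10 in PC3 (adjusted p = 0.489) and 0.09 in T47D (adjusted p = 0.842). SLC1A4, which carries serine, alanine and cysteine, passed in no line, with log2 fold changes from 0.01 in A549 to 0.44 in T47D cells.

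The sodium-coupled neutral carriers of SLC38 included SLC38A2, upregulated in 3 lines, and SLC38A6, downregulated in 3. SLC38A2 rose in A549 cells from 471, 423 and 538 to 888, 715 and 987 CPM (log2 fold change, 0.85 ± 0.139 (SE), adjusted p = 0.000904). In PC3 cells it rose from 489, 458 and 500.3 to 1368, 835 and 678 CPM (log2 fold change, 0.99 ± 0.212 (SE), adjusted p = 0.00854), with hypoxia replicate 1 well above the other 2. HCT-116 libraries went from 995, 1019 and 893 to 1276, 1699 and 1630.1 CPM (log2 fold change, 0.66 ± 0.221 (SE), adjusted p = 0.023). In all 3 lines the states did not overlap, and the HCT-116 call was lost without hypoxia replicate 2 or 3 (adjusted p up to 0.098). T47D libraries also did not overlap, with 415, 391 and 449 CPM in normoxia and 591, 716 and 579 CPM in hypoxia, and did not pass the test (log2 fold change, 0.59 ± 0.218 (SE), adjusted p = 0.0893). DESeq2 called SLC38A2 in T47D cells as well.

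SLC38A6, a little-studied member of the family, went the other way. HCT-116 libraries fell from 3.72, 5.89 and 3.38 to 0.910, 1.29 and 0.992 CPM (log2 fold change, -2.01 ± 0.339 (SE), adjusted p = 0.000447). T47D libraries fell from 19.0, 15.4 and 12.5 to 9.49, 8.82 and 10.0 CPM (log2 fold change, -0.73 ± 0.220 (SE), adjusted p = 0.0457), and A549 libraries from 22.7, 19.9 and 18.2 to 10.9, 15.2 and 17.5 CPM (log2 fold change, -0.48 ± 0.167 (SE), adjusted p = 0.0422). In these lines no hypoxic library reached a normoxic one. The HCT-116 call held without any 1 library. The A549 call was lost in the fit of all 24 libraries. In A549 and in T47D cells the call was lost without replicate 1 or 2 of either state (adjusted p up to 0.147 and 0.235). PC3 libraries overlapped, at 12.2, 9.25 and 15.0 and 9.55, 8.83 and 10.1 CPM (log2 fold change, -0.35 ± 0.175 (SE), adjusted p = 0.145).

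SLC38A9, a lysosomal carrier that senses arginine for mTORC1, was called in HCT-116 cells only, where it fell from 13.3, 14.7 and 15.1 to 8.12, 7.001 and 6.82 CPM (log2 fold change, -0.97 ± 0.205 (SE), adjusted p = 0.00178). Its log2 fold change in the other lines was between -0.14 and 0.00. SLC38A1 rose in A549 cells from 288, 291 and 363 to 421, 420.0 and 433 CPM (log2 fold change, 0.43 ± 0.117 (SE), adjusted p = 0.013), which was not called in the fit of all 24 libraries or without normoxia replicate 1 or 2. It was positive in the other 3 lines (0.24 to 0.51) without passing the test. SLC38A10 was upregulated in PC3 cells (from 85.1, 89.2 and 80.5 to 117, 119 and 108 CPM; log2 fold change, 0.43 ± 0.0889; adjusted p = 0.00731) and in A549 cells (log2 fold change, 0.32 ± 0.107; adjusted p = 0.0378). The A549 call for SLC38A10 was lost under scaling to total counts, with the replicate block (adjusted p = 0.0579), in the fit of all 24 libraries and without hypoxia replicate 2 or normoxia replicate 1 or 2. SLC38A5 was called in T47D cells from very few reads, with 4, 1 and 3 counts in normoxia and 35, 16 and 24 in hypoxia (log2 fold change, 2.998 ± 0.776 (SE), adjusted p = 0.0262). That call was lost without hypoxia replicate 1 or normoxia replicate 1 or 2. In HCT-116 cells, where it is abundant, SLC38A5 libraries overlapped (log2 fold change, 0.27 ± 0.221; adjusted p = 0.321).

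The heavy chain and its main light chain did not move alike in the calls. SLC3A2 passed the test in no line. In A549 cells its libraries did not overlap, at 1075, 949 and 1205 CPM in normoxia and 1234, 1392 and 1325 CPM in hypoxia (log2 fold change, 0.29 ± 0.117 (SE), adjusted p = 0.072). HCT-116 libraries were at 285, 204 and 216 and 363, 289 and 298 CPM (log2 fold change, 0.43 ± 0.212 (SE), adjusted p = 0.106). PC3 libraries were lower in hypoxia, at 216, 232 and 201 and 189.6, 194 and 181 CPM (log2 fold change, -0.20 ± 0.0915 (SE), adjusted p = 0.116). T47D libraries overlapped, and the log2 fold change was 0.31 in T47D (adjusted p = 0.5). The other heavy chain, SLC3A1, was tested in A549 cells only, at 4.14, 5.32 and 4.55 and 1.9999, 3.54 and 4.004 CPM (log2 fold change, -0.56 ± 0.254 (SE), adjusted p = 0.107), and 43.04% of its exon bases overlap PREPL on the other strand, so that its value is uncertain.

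SLC7A5 was upregulated in A549 cells, from 2302, 2145 and 2999.8 to 4117, 4824 and 3920.0 CPM (log2 fold change, 0.79 ± 0.141 (SE), adjusted p = 0.00156), with no overlap and with the call kept without any 1 library. HCT-116 libraries overlapped, at 691, 425 and 369.6 CPM in normoxia and 973, 690.1 and 729 CPM in hypoxia (log2 fold change, 0.69 ± 0.264 (SE), adjusted p = 0.0438). This call was lost without hypoxia replicate 1 or 3 or normoxia replicate 2 or 3 (adjusted p up to 0.122). PC3 libraries had 361, 418 and 301 and 427, 469.6 and 406 CPM (log2 fold change, 0.27 ± 0.125 (SE), adjusted p = 0.119), and T47D libraries 345, 426 and 612 and 617, 531 and 761 CPM (log2 fold change, 0.46 ± 0.263 (SE), adjusted p = 0.251). Both overlapped. Whether SLC7A5 changed more than SLC3A2 within a line was not tested.

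SLC7A8 rose in HCT-116 cells from 2.43, 2.22 and 3.15 to 5.62, 7.10 and 8.89 CPM (log2 fold change, 1.46 ± 0.275 (SE), adjusted p = 0.000882). In T47D cells, where it is most abundant, SLC7A8 was at 79.0, 98.2 and 179 CPM in normoxia and 88.6, 113 and 108 CPM in hypoxia (log2 fold change, -0.20 ± 0.276 (SE), adjusted p = 0.653). SLC7A7 passed in neither of the lines in which it was tested, with log2 fold changes of 0.30 in A549 (adjusted p = 0.135) and 0.38 in PC3 (adjusted p = 0.564). SLC7A6, a light chain like SLC7A7, fell in HCT-116 cells from 89.7, 56.2 and 51.8 to 51.1, 24.6 and 35.5 CPM (log2 fold change, -0.83 ± 0.276 (SE), adjusted p = 0.0231), a call lost without hypoxia replicate 2 or 3 or normoxia replicate 1. Since 53.9% of its exon bases overlap SLC7A6OS and the strand setting of the counting is not given in the sources used here, its value is uncertain. The light chains SLC7A9, SLC7A10 and SLC7A13 had at most 16 counts in any library and were tested in no line.

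Of the cationic carriers, SLC7A1, which takes up arginine and lysine, was upregulated in 2 lines. HCT-116 libraries rose from 138, 76.8 and 64.6 to 208, 157 and 165 CPM (log2 fold change, 0.92 ± 0.267 (SE), adjusted p = 0.0116), with the call kept without any 1 library. A549 libraries rose from 86.9, 83.9 and 113 to 122, 146 and 121 CPM (log2 fold change, 0.45 ± 0.135 (SE), adjusted p = 0.0209), which was lost under scaling to total counts, in the fit of all 24 libraries and without hypoxia replicate 2 or normoxia replicate 1 or 2. PC3 and T47D libraries overlapped, with log2 fold changes of 0.11 in PC3 (adjusted p = 0.555) and 0.22 in T47D (adjusted p = 0.505). SLC7A2 passed in none of the 4 lines, and SLC7A3, SLC7A4 and SLC7A14 had at most 1 count in any library.

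The proton-coupled carriers of SLC36 and the SLC43 carriers gave 4 calls in all. SLC36A4 was upregulated in A549 (log2 fold change, 0.73 ± 0.137; adjusted p = 0.002) and HCT-116 cells (0.85 ± 0.181; adjusted p = 0.00197), and SLC36A1, its lysosomal relative, passed in no line. SLC43A2, a carrier of large neutral amino acids without a heavy chain, fell in PC3 cells from 10.1, 11.8 and 8.99 to 7.72, 7.94 and 7.32 CPM (log2 fold change, -0.43 ± 0.141 (SE), adjusted p = 0.0404). When each of the 6 libraries was left out in turn, that call was kept without normoxia replicate 3 and lost in the other 5 fits. SLC43A3, which carries purine nucleobases, rose in PC3 cells from 33.4, 34.5 and 34.5 to 53.3, 55.5 and 56.4 CPM (log2 fold change, 0.69 ± 0.0848 (SE), adjusted p = 0.00123).

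The 2 pseudogenes of SLC7A5 were called downregulated, each in 2 lines. SLC7A5P1, of 538 bases that are 96.7% identical to the SLC7A5 transcript, fell in A549 cells from 1.10, 1.203 and 1.23 to 0.423, 0.226 and 0.263 CPM (log2 fold change, -1.93 ± 0.386 (SE), adjusted p = 0.00289) and in HCT-116 cells (log2 fold change, -1.07 ± 0.424 (SE), adjusted p = 0.0499). SLC7A5P2, of 536 bases and 96.3% identity, fell in HCT-116 cells from 5.02, 3.42 and 2.67 to 1.87, 1.14 and 1.94 CPM (log2 fold change, -1.17 ± 0.349 (SE), adjusted p = 0.013) and in T47D cells (log2 fold change, -1.48 ± 0.448 (SE), adjusted p = 0.0459). Fragments without a unique position were removed before counting, so these values rest on few reads and are uncertain. The SLC7A5P1 call in HCT-116 cells was close to the threshold. The call of SLC7A5P2 in T47D cells was lost without hypoxia replicate 2 or 3 or normoxia replicate 1 or 2, and in HCT-116 cells without normoxia replicate 1.

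Whether the response differed between lines was tested as the interaction of line and oxygen state in 1 edgeR fit of all 24 libraries. Of 42 members tested, 9 passed (adjusted p under 0.05), beside 18.3% of all genes tested. SLC6A9 had the smallest adjusted p (0.00524) and was called in PC3 cells only. SLC38A6 (0.0066) had its lowest log2 fold change in HCT-116 cells (-2.01). SLC6A8 (0.0105) had log2 fold changes of 1.86 in A549 and 1.40 in T47D cells, against 0.67 in HCT-116 and 0.56 in PC3 cells. The others were SLC6A4 (0.0119), SLC38A9 (0.0158), SLC38A5 (0.0182), SLC7A7 (0.0263), SLC1A3 (0.0359) and SLC36A4 (0.041). For SLC7A7 the HCT-116 libraries had 4, 5 and 13 counts in normoxia and 0, 1 and 0 in hypoxia. Neither SLC7A5, SLC6A6, SLC1A1 nor SLC38A2 passed this test, so the lines in which these were called are not shown to differ from the others. The count rested on all 3 replicates. It was 2 without replicate 1 of every group, beside 636 of all 16155 genes, and 5 without replicate 3, beside 2478 of 16166. Without replicate 2 it was 0, beside 165 of 16105, and 10 members had an unadjusted p under 0.05. With the replicate block the count of members was 14, and DESeq2's likelihood ratio test with all replicates called 12. Of all genes these 2 fits called 3683 of 16089 and 4463 of 15123.

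**Figure D4:**
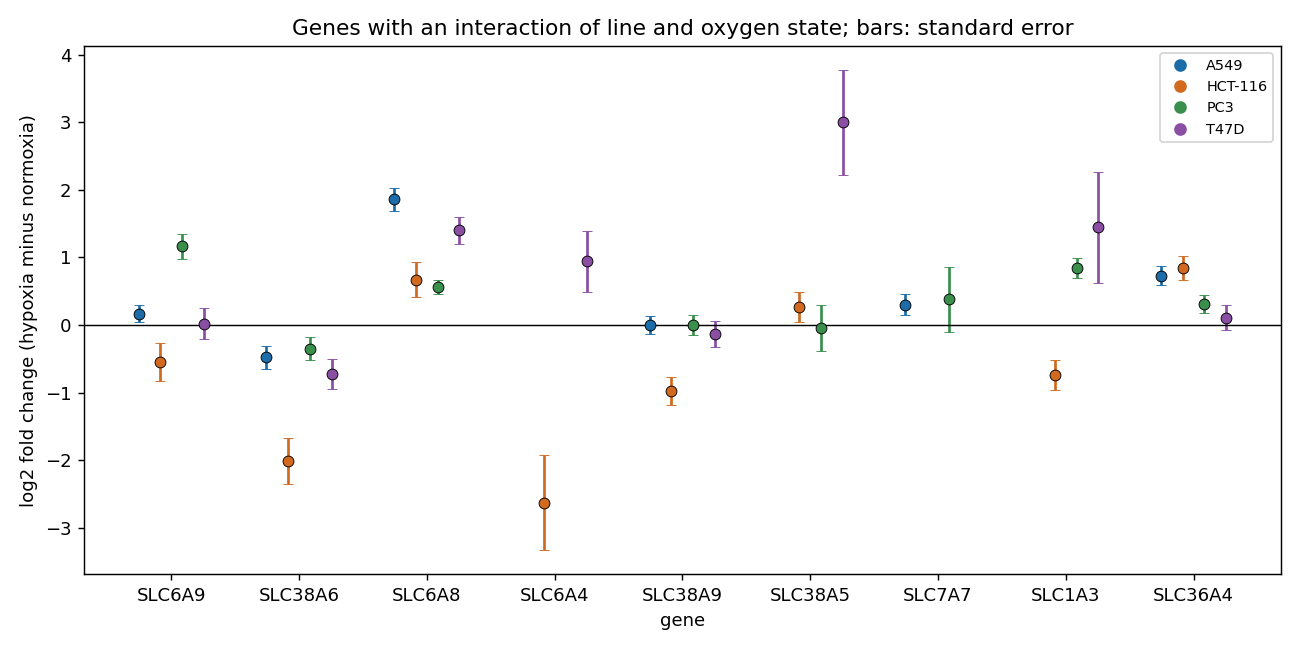
Log2 fold change of hypoxia over normoxia with its standard error in each cell line, for the 9 genes that passed the interaction test, ordered by adjusted p; a line without a point did not test that gene. HCT-116 cells lie lowest for SLC6A9 (-0.55), SLC38A6 (-2.01), SLC6A4 (-2.63), SLC38A9 (-0.97) and SLC1A3 (-0.74), and PC3 cells lie highest for SLC6A9 (1.16).

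The genes around the carriers were read from 3 further lists. The amino acid response runs through ATF4, a transcription factor made when uncharged tRNA builds up, and many carriers are among its known targets. Of its 36 listed genes, all tested in A549 cells, 5 were upregulated there (13.9%) and 16 downregulated (44.4%), beside 17.6% and 17.8% of all genes (median log2 fold change, -0.27). In HCT-116 cells the numbers were 13 (38.2%) and 5 (14.7%) of 34 tested, beside 23.3% and 27.0% (median, 0.31). The shares in PC3 cells were 16.7% and 13.9% of 36, beside 16.6% and 15.7% (median, 0.03). In T47D cells they were 13.9% and 16.7% of 36, beside 6.55% and 6.69% (median, -0.14). The transcript of ATF4 itself fell in A549 cells from 289 ± 20.6 to 187 ± 36.6 CPM (log2 fold change, -0.62 ± 0.138 (SE), adjusted p = 0.00488). Its values in the other lines were -0.41 (HCT-116), -0.28 (PC3) and -0.53 (T47D) on the log2 scale without passing the test. The level and activity of the ATF4 protein were not measured.

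The genes of that list called in 3 or more lines included both directions. PSAT1 and PSPH, enzymes of serine synthesis, were each downregulated in A549, HCT-116 and T47D cells, with log2 fold changes of -0.71, -0.89 and -1.08 for PSAT1 and -0.64, -1.13 and -1.33 for PSPH. MTHFD2, of mitochondrial folate metabolism, fell in A549 (-0.84), HCT-116 (-0.61) and PC3 cells (-0.43). DDIT4, an inhibitor of mTORC1, was upregulated in all 4 lines, with log2 fold changes of 1.70 (A549), 4.42 (HCT-116), 1.72 (PC3) and 3.45 (T47D). The pseudokinase TRIB3 rose in A549, HCT-116 and PC3 cells, the hormone STC2 in A549, HCT-116 and T47D cells, and the lipoprotein receptor VLDLR in A549, PC3 and T47D cells. PPP1R15A, a phosphatase subunit that restores translation, rose in A549, HCT-116 and T47D cells and fell in PC3 cells (-0.66). DDIT4, STC2 and VLDLR are also known targets of hypoxia-inducible factors.

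Of 25 enzymes of glutamine, glutamate, aspartate and proline metabolism, 5 rose and 4 fell of 24 tested in A549 (20.8% and 16.7%), 8 and 2 of 23 in HCT-116 (34.8% and 8.70%), 3 and 4 of 23 in PC3 (13.0% and 17.4%) and 0 and 2 of 24 in T47D cells (0 and 8.33%), beside the same shares of all genes as for the amino acid response, and no enzyme was called in the same direction in 3 lines. With the replicate block T47D cells had 1 upregulated enzyme, and by edgeR without the block the 0 upregulated enzymes are beside 4 at an unadjusted p under 0.05. Of 19 amino acid and peptide carriers of other families, 3 rose and 4 fell of 14 tested in A549 (21.4% and 28.6%, beside 17.6% and 17.8% of all genes) and 2 and 2 of 15 in HCT-116 cells (13.3% each, beside 23.3% and 27.0%). In PC3 cells 1 rose and 3 fell of 14 (7.14% and 21.4%, beside 16.6% and 15.7%), and in T47D cells 1 rose and 1 fell of 14 (7.14% each, beside 6.55% and 6.69%). SLC25A12, the mitochondrial aspartate and glutamate carrier, was the member of that list called in 3 lines, downregulated in A549 (log2 fold change, -0.40 ± 0.108 (SE), adjusted p = 0.0131), HCT-116 (-1.22) and PC3 cells (-0.65).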

How the data were processed

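RNA-seq gene counts of 24 libraries were used as deposited. The authors made polyadenylated, directional libraries, trimmed reads with Trim Galore (0.3.3), aligned them to GRCh37 with HISAT2 (2.05), removed fragments that did not map uniquely with Picard (2.0.1) and counted reads in UCSC genes with HTSeq (0.5.4p3). The deposited counts are whole and not normalized. The strand setting of the counting is not given in the sources used here.

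Counts were tested with edgeR (4.0.16, R 4.3.3) by the quasi-likelihood test after filterByExpr and TMM scaling, with hypoxia against normoxia in each line, line by oxygen state over 24 libraries, and lines over the 12 normoxia libraries with 6 pairwise contrasts. All genes tested entered the Benjamini-Hochberg adjustment. Standard errors are those of log2 fold changes. Alternatives were DESeq2 (1.42.0), DESeq2 size factors, total-count scaling, no filter or a mean count of at least 50, a replicate block, 1 fit of all libraries and each library left out. CPM in hypoxia comparisons were scaled within the line, and RPKM used the length of 1 GENCODE transcript per gene on GRCh37.

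The members and lists were chosen with earlier results of these data known. Members were named if called in 1 direction in 3 lines, if among the 3 largest changes per direction and line over a mean log2 CPM of 1, if called in both directions, if among the 5 smallest interaction p or the 8 highest mean RPKM, or as heavy or light chains. Genes of the other lists were named if called in 3 lines. SLC1A4, SLC1A6, SLC6A11, SLC6A12, SLC6A17, SLC7A2, SLC36A1, SLC36A4, SLC38A5, SLC43A3, ATF4 and members near 0 were named after their values were seen, to account for the remaining calls and levels.

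As a check of pairing, the deviation of each library from its group mean was correlated with that of the library of the same number, at 0.150, 0.325 and 0.302 in T47D cells, all over 0.1, which was taken as pairing from the data, as the labels give no shared day. In the other lines at least 1 pair was below 0.1. On simulated counts with 200 genes changed by a fold of 2, the test recovered 89.0% in A549 cells (18 of 13693 unchanged genes called) and 48.0% in T47D cells (6 of 13885), and 30.5% for the interaction. No set test was made, and 1 SLC7 gene was left out by the rule.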

Additional observations from a re-analysis of the deposited data

Results flagged for a closer look

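For 9 of 42 members tested, beside 18.3% of all genes, the effect of hypoxia differed between the lines by the interaction test of edgeR, each with an adjusted p under 0.05 over all genes tested. For SLC6A9 the adjusted p was 0.00524, and the log2 fold change ran from -0.55 in HCT-116 to 1.16 in PC3 cells. SLC38A6 (adjusted p = 0.0066) ran from -2.01 in HCT-116 to -0.35 in PC3 cells, negative in all 4 lines. SLC6A8 (adjusted p = 0.0105) ran from 0.56 in PC3 to 1.86 in A549 cells, positive in all 4. SLC6A4 (adjusted p = 0.0119) was at -2.63 in HCT-116 and 0.94 in T47D cells, from few counts. SLC38A9 (adjusted p = 0.0158) was at -0.97 in HCT-116 cells and between -0.14 and 0 elsewhere. SLC38A5 (adjusted p = 0.0182) was at 2.998 in T47D cells, where its hypoxia libraries held 35, 16 and 24 counts. SLC7A7 (adjusted p = 0.0263) had at most 13 counts in an HCT-116 library and was not tested within that line. SLC1A3 (adjusted p = 0.0359) was called in opposite directions in HCT-116 and PC3 cells, and its test includes A549 libraries without a count. SLC36A4 (adjusted p = 0.041) ran from 0.11 in T47D to 0.85 in HCT-116 cells. Which pairs of lines differed was not tested for any of the 9. Without replicate 2 of every group none of them passed, beside 165 of all 16105 genes that did.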

How the results depend on the processing

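The counts of called members moved by more than 1.5 times under these settings. In A549 cells the 2 downregulated members became 1 with a mean count of at least 50 and 1 in a fit of all 24 libraries. Of all genes, 2449 of 12395 and 1182 of 16089 were downregulated in these fits. In PC3 cells the 1 downregulated member became 2 under DESeq2, 2 with no filter on low counts, 2 with the replicate block and 0 in the fit of all 24 libraries (1 at an unadjusted p under 0.05), and the 9 upregulated became 5 in that fit. Of all genes, 2362 of 16765, 2178 of 16765, 2238 of 13466 and 425 of 16089 were downregulated in these 4 fits. In the last of them 867 were upregulated. In T47D cells the 2 upregulated members became 6 under DESeq2, 4 with no filter, 1 with a mean count of at least 50, 4 with the replicate block and 7 in the fit of all 24 libraries, and the 2 downregulated became 1 with a mean count of at least 50. The cause was not tested. Upregulated in T47D cells were 1289 of all 17409 genes under DESeq2, 1053 of 17409 with no filter and 862 of 12566 with that mean count. With the block they were 1281 of 14085, and in the fit of all 24 libraries 2231 of 16089. Downregulated with that mean count were 920 of 12566. Leaving out 1 library gave 6 to 10 upregulated and 1 to 3 downregulated members in A549, 7 to 12 and 4 to 9 in HCT-116, 8 to 10 and 0 to 2 in PC3, and 1 to 5 and 0 to 2 in T47D cells. Upregulated and downregulated of all genes were then 1642 to 2702 and 1467 to 2629 in A549 cells. In HCT-116 cells they were 2591 to 3462 and 2719 to 3357. PC3 cells had 1308 to 2629 and 875 to 2732, and T47D cells 180 to 1549 and 19 to 1756. Without 1 replicate number of every group, the interaction called 0 to 5 members and the test in normoxia 37 to 39. The same fits called 165 to 2478 and 13629 to 14451 of all genes. By the threshold of 0.1 for every pair, replicate numbers paired the libraries in T47D cells only. There hypoxia replicate 1 and normoxia replicate 2, of unlike number, were also over it (0.118). The main calls in T47D cells are from the fit without the block. With the replicate block, upregulated and downregulated members numbered 8 and 3 in A549, 11 and 9 in HCT-116 and 9 and 2 in PC3 cells, and 14 passed the interaction. Of all genes the block gave 2507 and 2495 of 13897 in A549 and 3653 and 4031 of 13614 in HCT-116 cells. In PC3 cells it gave 2349 and 2238 of 13466. In PC3 cells every library correlated best with the library of its own number, and so did each hypoxia library in HCT-116 cells, where normoxia replicate 3 correlated best with hypoxia replicate 2 (0.0804 against 0.0706). Scaling to total counts moved the median of all genes to -0.13 in A549 and -0.12 in T47D cells and the upregulated share of their calls from 49.8% to 33.9% and from 49.5% to 32.1%. Among the named members, the fit of all 24 libraries lost 8 calls within lines and added 6. No called member changed direction under any setting run. In HCT-116 cells the median of the members fell to -0.19 under DESeq2, which tested 46 in place of 33. At these depths 21 members could not be tested in any line.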

Other observations

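Some members with too few counts to be tested in a line differed between the oxygen states in their raw counts there. SLC1A6 had 0, 1 and 0 counts in normoxic and 10, 5 and 22 in hypoxic T47D libraries. The 4, 5 and 13 normoxic counts of SLC7A7 in HCT-116 cells were above its 0, 1 and 0 hypoxic counts. In normoxia alone, SLC43A3, at 13.3 ± 2.85 RPKM in HCT-116 cells, was at 0.0546 ± 0.0288 RPKM in A549 cells (SD, n = 3).

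Some single libraries were the highest of their group for more of the members than of all genes. In HCT-116 cells, normoxia replicate 1 was the highest of the 3 normoxia libraries for 22 of the 33 members tested (66.7%), beside 35.2% of all genes, and hypoxia replicate 1 was the highest for 19 of 33 (57.6%), beside 39.2%. Normoxia replicate 3 was the highest for 18 of 36 members in T47D cells, beside 36.3% of all genes. In A549 cells it was the highest for 16 of 30 (53.3%), beside 38.1%. Other libraries were near the share of all genes, such as hypoxia replicate 1 of A549 cells (36.7% beside 36.9%). Others were below it, such as hypoxia replicate 3 of T47D cells (19.4% beside 42.9%). Members are not independent of each other, and no test was made of these shares.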
